A study of Mus musculus with 10 samples.

Results

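Brown fat burns fatty acids that it draws from the blood, and 10 genes that encode the proteins of this supply line were followed in interscapular brown adipose tissue (iBAT) of the mouse. They were chosen by name from the 27267 genes listed in the deposited table, and all 10 were found by symbol and passed the filter on low values. *Lpl*, *Gpihbp1* and *Angptl4* encode the lipase of the capillary wall, its endothelial anchor and its inhibitor. *Cd36* and *Slc27a1* encode membrane proteins of fatty acid uptake, *Fabp3*, *Fabp4* and *Fabp5* the binding proteins that carry fatty acids inside the cell, and *Vldlr* and *Lrp1* receptors that take up lipoproteins.

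As background, triglycerides reach brown fat inside lipoproteins that are too large to leave the blood. Lipoprotein lipase is made by adipocytes, is carried to the capillary lumen by GPIHBP1 on endothelial cells, and frees fatty acids there, while ANGPTL4 inactivates it. The freed fatty acids cross the endothelium and enter adipocytes with the help of CD36 and are bound by small cytosolic proteins of the FABP family. Brown fat is known as one of the most active sites of this clearance in the mouse.

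The study sequenced RNA of iBAT in 5 wild-type libraries and 5 libraries labelled *Mgp*-KO. All mice were labelled as male C57BL/6 mice of 4 weeks. Per the methods, they were kept on standard chow, and the knockout carried the Mgp tm1Kry allele in every cell of the body. *Mgp* encodes matrix Gla protein, an inhibitor of bone morphogenetic proteins, and vascular disease shortens the lives of these mice, which limits the model, since vessels and fat lack the gene together. The replicate libraries are labelled as separate samples, and the p-values measure the spread between them.

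The libraries held 9253793 to 22252260 reads on genes. Replicates 1 to 3 of both groups differed from replicates 4 and 5, with 19616366 to 22252260 against 9253793 to 13281873 reads, and with 0.771 to 1.72% against 6.5 to 16.7% of the counts on mitochondrial ribosomal RNA. *Mgp* was at 466 to 1146 normalized counts in wild type and at 0, 0.765 and 0.821 in knockout-labelled libraries 1, 2 and 3. The libraries labelled *Mgp*-KO 4 and 5 held 500.2 and 331 normalized counts, against their label. Wild type 2 held 5094 normalized counts of *Xist* against 44.0 or less in the other 9 libraries, against its male label. All labels were kept, and each comparison was therefore also made within replicates 1 to 3 and, separately, within replicates 4 and 5. In the labelled tissue, the fat markers *Adipoq* and *Ucp1* were abundant in wild type, at 14506 ± 1575 and 60876 ± 32192 normalized counts (SD, n = 5).

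Levels of the genes were compared per kilobase of the principal transcript in the GENCODE annotation of GRCm38 (mm10), with the libraries of wild type as the reference. *Fabp4* (chr3:10204088-10208576, minus strand) stood first at 161786 ± 80094 normalized counts per kilobase (SD, n = 5). *Lpl* (chr8:68880491-68907448, plus strand) followed at 26593 ± 22803, and *Cd36* (chr5:17781690-17888801, minus strand) at 8886 ± 2382. These 3 genes kept this order in 5 of 5 wild-type libraries, although the mean of *Lpl* was 11385 in wild type 1 to 3 and 49404 in wild type 4 and 5. *Fabp3* (chr4:130308595-130315463, plus strand) was at 3060 ± 1263, *Gpihbp1* (chr15:75596628-75599481, plus strand) at 2206 ± 1055 and *Angptl4* (chr17:33773750-33781830, minus strand) at 1521 ± 935 per kilobase. The order of these 3 genes was not stable, since *Gpihbp1* was above *Angptl4* in only 2 of 5 wild-type libraries. The means of *Fabp3*, *Angptl4* and *Gpihbp1* were 3595, 2178 and 1872 per kilobase in wild type 1 to 3 and 2257, 536 and 2709 in wild type 4 and 5, so this order differed between the sets. *Slc27a1* (chr8:71568882-71587302, plus strand) was at 1066 ± 328, below *Angptl4* in 3 of 5 wild-type libraries and above *Fabp5* in 5 of 5. The 3 lowest genes were close in wild type 1 to 3. *Fabp5* (chr3:10012548-10016607, plus strand) was at 475 ± 75, *Vldlr* (chr19:27216484-27254231, plus strand) at 451 ± 58.9 and *Lrp1* (chr10:127538161-127621148, minus strand) at 336 ± 182 per kilobase. *Fabp5* was above *Vldlr* in 3 of 5 wild-type libraries, and *Vldlr* above *Lrp1* in 4 of 5. The mean of *Lrp1* was 468 in wild type 1 to 3, beside 488 for *Vldlr* and 481 for *Fabp5*, and 139 in wild type 4 and 5, beside 394 and 467. Each gene was measured with many reads, and the thinnest value was 237 reads, of *Fabp5*.

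The question was whether the supply line for fatty acids differed between iBAT of wild-type and *Mgp*-KO mice. With limma over the 10 libraries, 0 of the 10 genes passed an adjusted p of 0.05, where 0.0656% of all 13714 tested genes did. At an unadjusted p under 0.05, 1 of the 10 passed, against 10.4% of all genes, and without a further term edgeR and DESeq2 also called 0 of the 10, against 0.0219% and 2.49% of all genes. The fitted differences were positive for 6 genes and negative for 4, with a median of 0.20 on the log2 scale beside 0.03 for all tested genes. When the 2 sets of libraries (replicates 1 to 3 against 4 and 5) were given a term of their own in limma, again 0 of 10 genes passed, against 2.36% of all genes, and 2 of 10 at an unadjusted p under 0.05, against 19.3%. Within replicates 1 to 3, 1 of 10 genes passed (*Gpihbp1*), against 3.54% of all genes (5 of 10 and 22% unadjusted). Replicates 4 and 5 alone gave 0 of 10, against 0% of all genes (1 of 10 and 6.23% unadjusted).

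**Figure D1:**
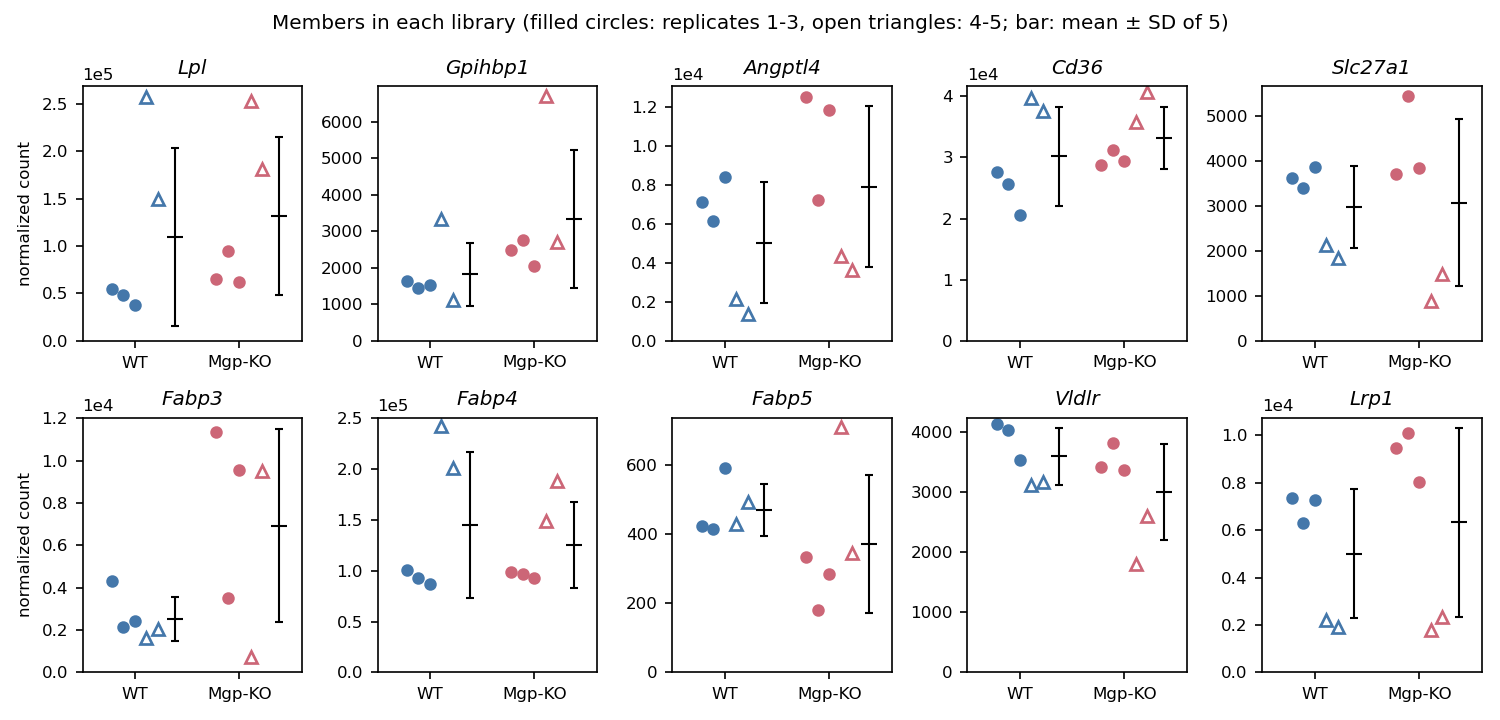
Normalized counts of each gene (vertical axis, from 0) in the 5 wild-type libraries (blue) and the 5 knockout-labelled libraries (red), with filled circles for replicates 1 to 3, open triangles for replicates 4 and 5, and black bars for mean ± SD. The groups overlap for all 10 genes over the 10 libraries, and for *Lpl*, *Fabp4*, *Angptl4*, *Vldlr*, *Slc27a1*, *Lrp1* and *Cd36* the means of circles and triangles differ by more than those of the groups on the log2 scale, as do those of *Fabp3* by a small margin.

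After *Fabp3*, the 3 genes of lipolysis at the capillary wall had the largest positive fitted differences over the 10 libraries. *Gpihbp1*, the endothelial protein that holds lipoprotein lipase in the capillary lumen, was at 1653, 1438, 1541, 3338 and 1132 normalized counts in wild type 1 to 5. In knockout-labelled libraries 1 to 5 it was at 2501, 2764, 2064, 6694 and 2710. All 3 knockout-labelled libraries of replicates 1 to 3 lay above all 3 wild-type ones, and replicate 4 was the highest of each group. The fitted level was 1.80-fold higher over the 10 libraries (log2 0.84, SE 0.35), with an unadjusted p of 0.0339 and an adjusted p of 0.423 in limma, and the log2 difference was 0.56 without *Mgp*-KO 4. Within replicates 1 to 3, *Gpihbp1* rose 1.57-fold, from 1544 ± 107 to 2443 ± 354 normalized counts (SD, n = 3), a log2 difference of 0.65 (SE 0.14) with a limma adjusted p of 0.0492. Within replicates 4 and 5 the log2 difference was 1.13 with a 95% interval from -0.40 to 2.66, and with the set term the adjusted p was 0.165.

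*Lpl*, the lipase itself, was at 54609, 48301, 37635, 256681 and 149915 normalized counts in wild type 1 to 5. The knockout-labelled libraries held 65635, 95152, 61944, 252808 and 181395. Replicates 4 and 5 of both groups were far above replicates 1 to 3, and only within replicates 1 to 3 did the groups not overlap. The log2 difference was 0.44 (SE 0.60, limma adjusted p = 0.843) over all libraries and 0.65 (SE 0.24, adjusted p = 0.170) within replicates 1 to 3. Leaving out 1 library moved the former to between 0.15 (without *Mgp*-KO 4) and 0.85 (without wild type 4).

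*Angptl4*, the inhibitor of the lipase, was at 7099, 6135, 8380, 2158 and 1388 normalized counts in wild type 1 to 5. It was at 12495, 7201, 11821, 4369 and 3624 in the knockout-labelled libraries. The groups overlapped in replicates 1 to 3 through *Mgp*-KO 2 and wild type 3 and did not overlap in replicates 4 and 5, where 41.6% of all genes had groups that did not overlap in either direction. The level was 1.73-fold higher over the 10 libraries (log2 0.79). The standard error of this log2 difference was 0.54 in limma without a further term (adjusted p = 0.655) and 0.22 with the set term (95% interval 0.30 to 1.28, adjusted p = 0.0878). Within replicates 1 to 3 the log2 difference was 0.51 (SE 0.23, limma adjusted p = 0.250). It was 1.20 (SE 0.37, adjusted p = 0.679) within replicates 4 and 5, whose knockout-labelled libraries held *Mgp* reads. DESeq2 with the set term called *Angptl4* (log2 0.79, adjusted p = 0.0112), as it did 7.07% of all genes, while edgeR with that term, which called 2.49% of all genes, did not (adjusted p = 0.0908). Without *Mgp*-KO 2, limma with the set term gave a log2 difference of 0.96 (adjusted p = 0.0389), and without any other single library it gave adjusted p of 0.102 to 0.191. The smallest log2 difference was that without wild type 5, at 0.63 with the set term and 0.40 without a further term.

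**Figure D2:**
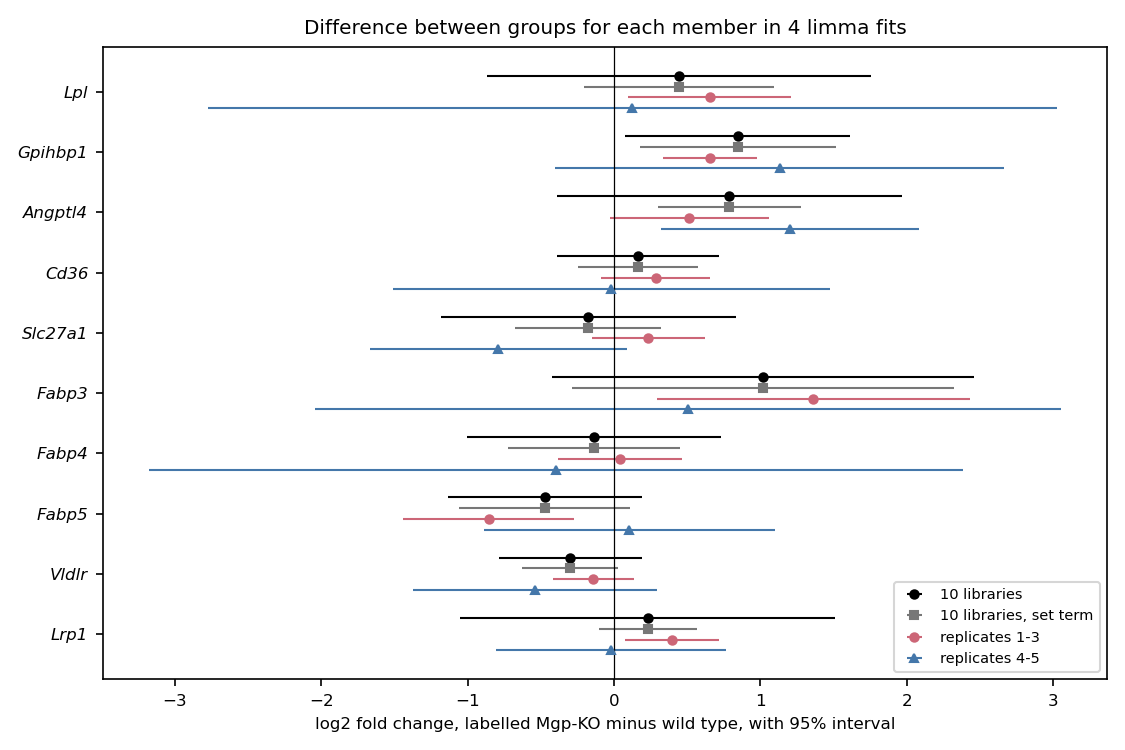
Fitted log2 fold change of each gene (horizontal axis, knockout-labelled minus wild type) with its 95% interval in limma over 10 libraries without and with the set term, within replicates 1 to 3, and in replicates 4 and 5 alone. The interval of *Gpihbp1* lies above 0 in 3 of these 4 fits, that of *Angptl4* in 2, and for 7 of the 10 genes the widest of the 4 intervals is that of replicates 4 and 5.

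The membrane proteins of fatty acid uptake did not pass the test over the 10 libraries or within either set. *Cd36*, a fatty acid receptor of adipocytes and of capillary endothelium, was at 27579, 25627, 20638, 39641 and 37538 normalized counts in wild type 1 to 5. It was at 28698, 31242, 29473, 35729 and 40662 in the knockout-labelled libraries. The 3 knockout-labelled values of replicates 1 to 3 were above the 3 wild-type values, and those of replicates 4 and 5 overlapped. The log2 difference was 0.16 over the 10 libraries with a 95% interval from -0.39 to 0.72 (limma adjusted p = 0.866), and 0.29 (adjusted p = 0.342) within replicates 1 to 3. The former was 0.038 without wild type 3 and 0.27 without wild type 4.

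*Slc27a1* encodes fatty acid transport protein 1, which also activates fatty acids to acyl-CoA. It was at 3628, 3416, 3864, 2140 and 1857 normalized counts in wild type 1 to 5 and at 3716, 5451, 3855, 889 and 1496 in the knockout-labelled libraries. The knockout-labelled values overlapped the wild-type ones in replicates 1 to 3 and lay below them in replicates 4 and 5. The log2 difference was 0.24 (SE 0.17) in the former and -0.79 (SE 0.37) in the latter, and limma's test of the difference between these effects gave an unadjusted p of 0.0168 and an adjusted p of 0.455. In that test 0 of the 10 genes passed, against 0.00729% of all genes, and 10.3% of all genes had an unadjusted p under 0.05.

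The 3 binding proteins are close relatives, but no stretch as long as a read was shared between their coding sequences. The coding sequences of *Fabp3* and *Fabp4* were 67.4% identical over 396 aligned bases in the GENCODE transcripts, those of *Fabp4* and *Fabp5* 63.1% over 398, and those of *Fabp3* and *Fabp5* 59.2% over 399. The longest run shared by *Fabp3* and *Fabp4* was 14 bases, and the reads had 50 bases. The stretch of 50 bases around it is shown because it holds the longest exact match between these coding sequences, with the shared run in capitals and the bases counted from 1 at the start codon (bases 58 to 107 of both).
*Fabp3*: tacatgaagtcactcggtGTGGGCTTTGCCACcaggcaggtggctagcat
*Fabp4*: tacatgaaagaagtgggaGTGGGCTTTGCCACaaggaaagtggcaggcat
These stretches had the same base at 39 of 50 positions. The stretches around the longest run shared by *Fabp4* and *Fabp5*, of 12 bases, were the same at 31 of 50 positions (bases 86 to 135 of *Fabp4* and 92 to 141 of *Fabp5*).
*Fabp4*: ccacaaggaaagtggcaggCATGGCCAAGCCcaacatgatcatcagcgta
*Fabp5*: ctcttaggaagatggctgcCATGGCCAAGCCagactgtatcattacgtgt
Copies elsewhere in the genome are a larger limit. Of all stretches of 50 bases in the principal transcripts, 29.2% for *Fabp3* also occurred in the pseudogene *Fabp3-ps1* and 21.1% for *Fabp5* in 5 other genes, against 0% for *Fabp4*, so the counts of *Fabp3* and *Fabp5* depend on how such reads were treated. In addition, 161 of the 823 exon bases of *Fabp3* (19.6%) overlapped genes on the opposite strand, *Zcchc17* and *Gm10570*, whose reads cannot be separated from those of *Fabp3* without a strand setting.

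*Fabp3*, the binding protein of heart and muscle that is also made in brown adipocytes, had the largest fitted difference and the widest spread. It was at 4309, 2145, 2422, 1643 and 2071 normalized counts in wild type 1 to 5 and at 11332, 3498, 9580, 720 and 9523 in the knockout-labelled libraries. Of the knockout-labelled libraries, 3 (*Mgp*-KO 1, 3 and 5) lay above every wild-type one, *Mgp*-KO 2 lay within the wild-type range and *Mgp*-KO 4 below it. The means were 2518 ± 1039 and 6931 ± 4568 (SD, n = 5), the log2 difference was 1.02 (SE 0.66) and the limma adjusted p was 0.636. Within replicates 1 to 3 the log2 difference was 1.36 (SE 0.46, limma adjusted p = 0.146), and within replicates 4 and 5 it was 0.51 (SE 1.07, adjusted p = 0.883). *Fabp3* passed in 1 of 36 alternative settings, the limma fit with the set term and without *Mgp*-KO 4. That fit, chosen after seeing the data, gave a log2 difference of 1.67 (adjusted p = 0.0312). It called 678 of all 13714 genes, where limma with the set term over all libraries called 324. Without *Mgp*-KO 4 and without the set term, the log2 difference of *Fabp3* was 1.70 (limma adjusted p = 0.0674). The pseudogene *Fabp3-ps1* was at 10.3 to 35.8 normalized counts in wild type and at 98.0, 28.3, 92.0, 0 and 39.9 in knockout-labelled libraries 1 to 5. Muscle fibres also contain *Fabp3*, and 13 markers of skeletal muscle, none of them at 0 in all libraries, summed to 44907 and 42956 normalized counts in *Mgp*-KO 2 and 5, against 136 to 7530 in wild type and 211 to 468 in the other knockout-labelled libraries. Their part in the level of *Fabp3* was not tested, and the log2 difference was 1.13 without *Mgp*-KO 2 (limma adjusted p = 0.704) and 0.77 without *Mgp*-KO 5 (adjusted p = 0.721). With the set term it was 1.26 and 0.53, respectively (adjusted p = 0.329 and 0.569).

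*Fabp4*, the abundant binding protein of adipocytes and of capillary endothelium, was at 101057, 92861, 87326, 242211 and 201347 normalized counts in wild type 1 to 5. It was at 98553, 97126, 93254, 149140 and 188212 in the knockout-labelled libraries. Within replicates 1 to 3 the groups were close, at 93748 ± 6908 and 96311 ± 2742 (SD, n = 3), and the 95% interval of the log2 difference ran from -0.38 to 0.46 in limma. In replicates 4 and 5 the knockout-labelled values, both from libraries with *Mgp* reads, were below the wild-type ones, and the log2 difference over all libraries was -0.13 (SE 0.40, adjusted p = 0.942).

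*Fabp5* encodes a binding protein of skin that fat, endothelium and macrophages also make. It was at 421, 414, 589, 428 and 493 normalized counts in wild type 1 to 5 and at 334, 181, 284, 709 and 345 in the knockout-labelled libraries. All knockout-labelled libraries but *Mgp*-KO 4 lay below every wild-type one, and *Mgp*-KO 4, which held *Mgp* reads, was the highest of the 10. The log2 difference was -0.47 (SE 0.30, limma adjusted p = 0.633) over all libraries and -0.86 (SE 0.25, adjusted p = 0.110) within replicates 1 to 3, where 474.8 ± 98.9 in wild type stood against 266 ± 77.8 (SD, n = 3). Leaving out 1 library moved the former to between -0.74 (without *Mgp*-KO 4) and -0.25 (without *Mgp*-KO 2).

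The lipoprotein receptors did not pass the test in either direction. *Vldlr*, which binds triglyceride-rich lipoproteins, was at 4120, 4030, 3529, 3110 and 3172 normalized counts in wild type 1 to 5 and at 3406, 3817, 3368, 1802 and 2598 in the knockout-labelled libraries. The log2 difference was -0.30 (SE 0.22, limma adjusted p = 0.689), with overlap in replicates 1 to 3 and none in replicates 4 and 5, and it was -0.13 without *Mgp*-KO 4. *Lrp1*, a large endocytic receptor for lipoprotein remnants made by many cell types, was at 7362, 6280, 7258, 2212 and 1931 in wild type and at 9456, 10072, 8040, 1782 and 2331 in the knockout-labelled libraries. Its 3 knockout-labelled values of replicates 1 to 3 were above the 3 wild-type ones (log2 0.40, SE 0.14, adjusted p = 0.155), and the log2 difference over all libraries was 0.23 (SE 0.59, adjusted p = 0.929).

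In replicates 1 to 3, 5 of the 10 genes had groups that did not overlap, where 30.6% of all tested genes did. They were *Cd36*, *Lpl*, *Gpihbp1* and *Lrp1*, which were higher in the knockout-labelled libraries (15.5% of all genes), and *Fabp5*, which was lower (15.1%). In replicates 4 and 5 the count was 4 of 10 beside the 41.6% of all genes, with *Angptl4* higher (20.3% of all genes) and *Fabp4*, *Vldlr* and *Slc27a1* lower (21.3%). Over the 10 libraries it was 0 of 10, beside 3.5% of all genes.

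The sets of libraries were also compared. With the group in the limma model, 6 of the 10 genes differed between replicates 4 and 5 and replicates 1 to 3, where 38.2% of all tested genes did, 18.3% higher and 19.9% lower. *Lpl* was higher in replicates 4 and 5 by 1.82 (adjusted p = 0.00105) and *Fabp4* by 1.02 (adjusted p = 0.0132) on the log2 scale. *Lrp1* was lower (log2 -1.96, adjusted p = 1.84e-05), as were *Angptl4* (log2 -1.70, adjusted p = 0.000300), *Slc27a1* (log2 -1.38, adjusted p = 0.00113) and *Vldlr* (log2 -0.51, adjusted p = 0.0220). *Cd36*, *Fabp3*, *Fabp5* and *Gpihbp1* did not pass. Depth and the share of mitochondrial ribosomal RNA moved with these sets, and their part in the differences cannot be told apart from that of the sets.

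In bulk tissue, fewer cells of a type and less RNA per cell cannot be told apart, so each gene was also set against endothelial and against adipocyte markers, whichever of these cells make it. Of 18 endothelial markers, none at 0 in all libraries, 17 had a positive fitted difference, where 52.7% of all tested genes had one, and 0 passed the test with the set term, beside the 2.36% of all genes. Their median log2 difference was 0.20 within replicates 1 to 3. It was 0.90 within replicates 4 and 5, whose knockout-labelled libraries held *Mgp* reads. Their summed level was 26451 to 41808 normalized counts in wild type and 28347 to 74776 in the knockout-labelled libraries, with the highest in *Mgp*-KO 4. Of 14 adipocyte markers, none at 0 in all libraries, 5 had a positive difference, and *Ucp1* (log2 -2.70, adjusted p = 0.0127) and *Adrb3* (log2 -2.37, adjusted p = 0.0163), which encode the uncoupling protein and the adrenergic receptor of brown fat, fell in limma with the set term. Without that term 0 of the 14 passed, beside 0.0656% of all genes. The adipocyte sum was 241906 to 292461 in wild type and 106709 to 249573 in the knockout-labelled libraries. The lowest sums were those of *Mgp*-KO 4 and 5, at 106709 and 186482, which held *Mgp* reads. Within replicates 1 to 3 the groups overlapped, at 242217 to 292461 in wild type and 227637 to 249573 in the knockout-labelled libraries.

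Over 20 such ratios, 2 had an unadjusted p under 0.05 in a two-sided exact permutation test and 0 had an adjusted one. Of the same ratios for all tested genes, 17.9% had such an unadjusted p. With the geometric mean of the markers in place of their sum it was 3 of 20, beside 23.6%, again with 0 adjusted. The adjusted counts of 0 carry little weight. Even the smallest exact permutation p that 5 against 5 libraries allow was adjusted to 0.159 over the 20 ratios. *Fabp5* relative to the endothelial markers was lower in 5 of 5 knockout-labelled libraries, the 2 with *Mgp* reads among them, than in every wild-type library, with log2 ratios of -7.29 to -6.72 against -6.61 to -5.49, and 6.03% of the ratios for all genes had groups that did not overlap over the 10 libraries. The difference of -0.87 had an exact permutation p of 0.00794, which is the smallest that 5 against 5 libraries allow, and an adjusted p of 0.159. In *Mgp*-KO 4, *Fabp5* itself was highest, at 709 normalized counts, as was the endothelial sum, at 74776. Relative to the adipocyte markers, *Fabp5* differed by -0.05 on the log2 scale (exact permutation p = 0.992). *Gpihbp1* was higher relative to the adipocyte markers by 1.27 on the log2 scale (exact permutation p = 0.0397, adjusted p = 0.349), and by 0.95 when *Ucp1* was left out of these markers (exact permutation p = 0.119). Relative to the endothelial markers, with which it shares its cell type, *Gpihbp1* was higher by 0.45, at 0.46 within replicates 1 to 3 and 0.43 within replicates 4 and 5 (exact permutation p = 0.0714, adjusted p = 0.349), and by 0.39 with the geometric mean (exact permutation p = 0.0476, adjusted p = 0.222). Relative to the adipocyte markers, the groups of replicates 1 to 3 did not overlap for 6 of the 10 genes, where 32.7% of all tested genes had such ratios. *Cd36*, *Lpl*, *Gpihbp1*, *Angptl4* and *Lrp1* were the 5 higher ones and *Fabp5* the lower one. Without *Ucp1* among the markers, *Cd36* and *Angptl4* overlapped. With the geometric mean of the markers the count was 10 of 10, where 63% of all genes had such ratios. Over the 10 libraries, the ratios of *Cd36*, *Lpl*, *Angptl4* and *Lrp1* were higher by 0.59, 0.87, 1.21 and 0.65 on the log2 scale, with exact permutation p of 0.151, 0.325, 0.0635 and 0.286. Without *Ucp1* the same differences were 0.27, 0.55, 0.90 and 0.34. With *Ucp1* they were 0.42, 0.79, 0.65 and 0.53 within replicates 1 to 3, and 0.84, 0.98, 2.06 and 0.83 within replicates 4 and 5. Relative to the endothelial markers, the groups of replicates 1 to 3 did not overlap for 1 of 10 genes (*Fabp5*), beside 29.9% of all genes. With the geometric mean it was 4 of 10, with *Lpl* and *Gpihbp1* higher and *Fabp5* and *Vldlr* lower, beside 31.2%.

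**Figure D3:**
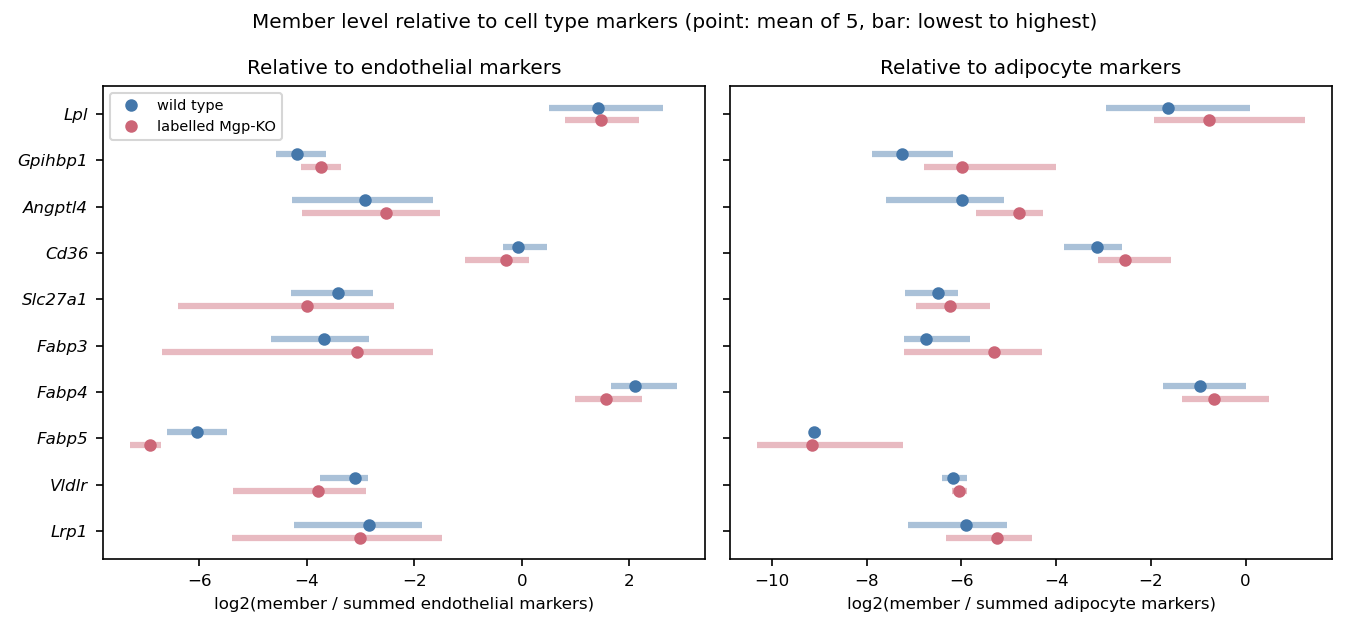
Log2 ratio of each gene to the summed endothelial markers (left) and to the summed adipocyte markers (right), with the mean (point) and the lowest to highest value (bar) of 5 wild-type (blue) and 5 knockout-labelled libraries (red). Of the 20 pairs of bars, those of *Fabp5* relative to endothelial markers are the pair that does not overlap.

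The patterns over the libraries most like those of the 10 genes were found from the root mean square difference of centred log2 values over the 10 libraries. The 3 genes most like *Gpihbp1* were *Cldn15* (0.118), *Esam* (0.138) and *Car4* (0.156). *Esam*, an adhesion molecule of endothelial junctions, was at 949, 873, 767, 1716 and 761 normalized counts in wild type 1 to 5 and at 1232, 1558, 1127, 3657 and 1333 in the knockout-labelled libraries. *Car4*, a carbonic anhydrase on the surface of capillary endothelium, was at 834, 809, 822, 1952 and 611 in wild type and at 1100.4, 1569, 1033, 2902 and 1185 in the knockout-labelled libraries. The nearest gene was *Slc25a30* for *Vldlr* (0.0782), *Kpna4* for *Cd36* (0.106), *Tmed2* for *Fabp4* (0.114), *Tob2* for *Slc27a1* (0.150), *Gpx7* for *Fabp5* (0.168) and *Rnps1* for *Lrp1* (0.191). *Lpl*, *Angptl4* and *Fabp3* had no gene as near, with 0.232 for 2900093K20Rik, 0.307 for *Myc* and 0.457 for 2810030D12Rik.

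Other genes of the same steps were read from lists around the 10 genes. Without a further term, limma called 0 of the 73 tested genes of these 6 lists (18 at an unadjusted p under 0.05, beside 10.4% of all genes). With the set term it called 8 of the 73, all of them lower, beside 2.36% of all genes, and the counts per list below are parts of these 8. With that term edgeR called 9 of the 73, 1 of them higher, beside 2.49% of all genes, and DESeq2 called 17, 5 of them higher, beside 7.07%. Among 15 tested partners of lipolysis, 1 fell in limma with the set term, and their median log2 difference was -0.14. It was *Angptl8*, a secreted protein of fed fat and liver that acts on lipase inhibition, at 292 ± 82.3 normalized counts in wild type and 96.4 ± 43.1 in the knockout-labelled libraries (SD, n = 5, log2 -1.64, adjusted p = 0.0237). It fell while *Angptl4* did not, and the count of *Angptl4* per count of *Angptl8*, not scaled for length, was 19.6 to 26.1 in wild type 1 to 3 and 120 to 173 in knockout-labelled libraries 1 to 3. Replicates 4 and 5 gave 13 and 4.31 for wild type, against 45.7 and 21.9 for the knockout-labelled libraries, so the groups overlapped over the 10 libraries. *Pcsk5*, a convertase that cleaves proteins of this system, was at 240 to 329 normalized counts in wild type 1 to 3 and at 1070 to 2221 in knockout-labelled libraries 1 to 3, where it rose (log2 2.49, limma adjusted p = 0.00854). In replicates 4 and 5 it was at 170 and 232 in wild type and at 113 and 376 in the knockout-labelled libraries (log2 0.06). Over the 10 libraries the log2 difference was 1.51 (limma adjusted p = 0.111 with the set term), and DESeq2 called *Pcsk5* without (log2 2.11, adjusted p = 0.0153) and with that term (log2 1.67, adjusted p = 0.00387). *Lmf1*, which folds the lipase, and *Sel1l*, its partner, had log2 differences of -0.33 and 0.23 that did not pass.

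Of 12 tested genes of membrane transport, 1 fell with the set term, with a median of -0.04. *Ffar4*, a receptor for long-chain fatty acids, fell from 606 ± 343 to 167 ± 73.6 normalized counts (SD, n = 5, log2 -1.80, limma adjusted p = 0.0134). Its groups did not overlap over the 10 libraries, where 3.5% of all tested genes had such groups. Those of *Angptl8* and of *Lrp11*, *Nr1h3* and *Apln*, given below, did not overlap either. *Got2*, a mitochondrial aminotransferase also described as a fatty acid binding protein of the plasma membrane, was the gene that edgeR called higher. It was at 310.4 ± 140 normalized counts in wild type and 551 ± 257 in the knockout-labelled libraries (SD, n = 5), with adjusted p of 0.0504 in limma, 0.0418 in edgeR and 0.00184 in DESeq2 with the set term, and it rose within replicates 1 to 3 (log2 0.84, limma adjusted p = 0.0371). Of 8 tested other lipid binding proteins, *Dbi*, the acyl-CoA binding protein, fell from 22685 ± 10458 to 9914 ± 5452 (log2 -1.26, adjusted p = 0.0141), and the median was -0.17. Of 13 tested relatives of the lipoprotein receptors, *Lrp3* (log2 -0.78, adjusted p = 0.0298) and *Lrp11* (log2 -1.54, adjusted p = 0.0408) fell, with a median of 0.01. Among 13 nuclear regulators, whose median was -0.01, *Cebpb* (log2 -1.06, adjusted p = 0.0420) and *Nr1h3*, the liver X receptor alpha gene (log2 -0.57, adjusted p = 0.0431), fell. *Pparg*, which encodes the receptor known to drive *Lpl*, *Cd36* and *Fabp4* in fat, had a log2 difference of 0.10 (adjusted p = 0.768). Of 12 genes of endothelial fatty acid handling, *Apln*, which encodes the ligand apelin, fell from 215 ± 38 to 53.1 ± 26.8 normalized counts (log2 -2.32, adjusted p = 0.0399), while the median was 0.38.

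**Figure D4:**
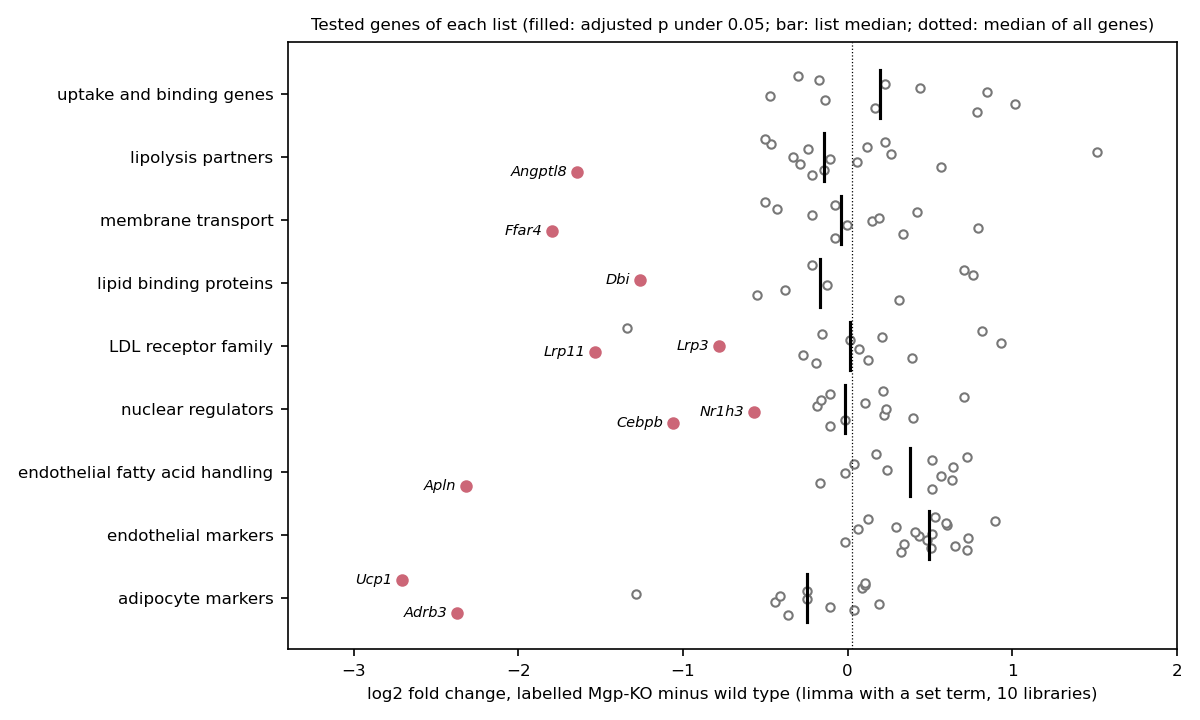
Log2 fold change of every tested gene (horizontal axis, knockout-labelled minus wild type, limma with the set term) in the 10 genes, the 6 lists of related genes and the 2 marker lists, with filled points for an adjusted p under 0.05, bars for list medians and a dotted line for the median of all tested genes. The named points are the 10 genes past the threshold, all of them lower, and the endothelial markers have the highest list median, 0.50.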

How the data were processed

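RNA of iBAT from 5 wild-type mice and 5 mice labelled *Mgp*-KO was sequenced as single reads of 50 bases. Per the methods, the authors mapped the reads with STAR to mm10, counted them per gene and divided the counts by DESeq2 size factors. The deposited values are thus a non-negative signal for each gene, called normalized counts here, and the annotation release and strand setting are not given in the sources used here. All values (100%) were whole multiples, within 0.01 reads, of the value of 1 read, so reads could be recovered. A floor of 3 reads was worth 2.15 to 5.19 normalized counts, which covers counting error only.

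Differences were tested with limma 3.58.1 in R 4.3.3 (eBayes with trend) on log2(normalized count + 1), for 13714 genes with a mean of at least 10, without a block, and adjusted by the Benjamini-Hochberg method over all of them with a threshold of 0.05. Fold changes are on that log scale, which understates the change of low genes. Alternatives used edgeR 4.0.16 and DESeq2 1.42.0 on recovered reads, which called 3 and 386 genes without a further term, other pseudocounts, filters and scalings, a set term, a replicate block and fits without each library. The fits were tested on simulated data. Single ratios used two-sided exact permutation tests, and the shares over all genes beside them used log2(normalized count + 1). The text names the 10 genes, genes of 6 related lists that passed without or with the set term, otherwise up to 3 per list with the largest change, and genes with the nearest pattern to each of the 10 (the rule gave 3 for each, of which the text gives 3 for *Gpihbp1* and the nearest for the other genes). *Xist*, *Pparg*, *Lmf1*, *Sel1l*, *Pcsk5*, *Got2*, *Adipoq*, *Ucp1*, *Adrb3* and the neighbours and pseudogene of *Fabp3* were named outside this rule. The members and lists were chosen with earlier results of these data known.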

Additional observations from a re-analysis of the deposited data

Results flagged for a closer look

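*Gpihbp1* stood out in the same replicate number of both groups. Wild type 4 held 3338 normalized counts, with the gap to the next wild-type library making up 0.764 of the group's range. Knockout-labelled library 4 held 6694, with a gap of 0.849 of its range. In both cases the gap was above the critical value for 5 libraries. These were 2 of 20 groups checked over the 10 genes, and chance marks about 1 in 20. The endothelial markers also summed to their highest value of each group in these libraries, at 41808 and 74776 normalized counts, and their part in the level of *Gpihbp1* was not tested beyond the ratios given above.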

How the results depend on the processing

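Over 360 fits of the 10 genes under 36 alternative settings each, 5 gave an adjusted p under 0.05, in 3 genes (*Gpihbp1*, *Angptl4* and *Fabp3*), and *Lpl*, *Gpihbp1*, *Angptl4*, *Fabp3* and *Vldlr* kept their direction in all of them. The number of genes called in all was 9 of 13714 in the limma fit without a further term. It was 29 with a pseudocount of 10, 15 with a minimum mean of 50, 1 with no filter on low values, 25 with upper quartile scaling and 34 with quantile normalization. It was 3 with edgeR, 386 with DESeq2, and with the set term 324 with limma, 341 with edgeR and 1135 with DESeq2. It was 486 within replicates 1 to 3, and in replicates 4 and 5 alone it was 0 (855 at an unadjusted p under 0.05). Leaving out each library gave 0 to 93 calls without and 56 to 678 calls with the set term, the highest without *Mgp*-KO 4. The fits without each library under the set term and the adipocyte ratios without *Ucp1* were chosen after seeing the data.

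With the replicate number as a block, limma called 270 genes and edgeR 222, *Gpihbp1* among those of limma (adjusted p = 0.0433). The methods speak of 5 pairs of mice without saying what a pair shared or that the numbers mark the pairs. The numbers were not taken to pair libraries, since the deviations of same-numbered libraries correlated at 0.0559 to 0.527, and at a mean of -0.02 once set means were removed, and only 2 of 5 numbers correlated best with each other. No other call of the 10 genes changed with the block. Of the related genes that limma called with the set term, *Angptl8*, *Ffar4*, *Dbi* and *Apln* also passed with the block. *Lrp3*, *Lrp11*, *Cebpb* and *Nr1h3* did not (limma adjusted p = 0.0531, 0.0531, 0.0748 and 0.0857).

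Directions reversed as follows, none past the threshold and the cause not tested. In replicates 4 and 5 alone the log2 differences were -0.017 for *Cd36*, 0.106 for *Fabp5* and -0.020 for *Lrp1*. Within replicates 1 to 3 they were 0.041 for *Fabp4* and 0.235 for *Slc27a1*. *Fabp4* was at 0.177 with quantile normalization, and *Slc27a1* at 0.041 with edgeR and 0.048 with DESeq2. Over the fits that left out 1 library, *Fabp4* ran from -0.297 to 0.084, *Slc27a1* from -0.451 to 0.203 and *Lrp1* from -0.057 to 0.603, with the sign turned without wild type 4 or 5 for *Fabp4*, without *Mgp*-KO 4 or 5 for *Slc27a1*, and without wild type 4, wild type 5 or *Mgp*-KO 2 for *Lrp1*. With the geometric mean of the markers, *Lpl* relative to endothelial markers was at -0.014 and *Fabp5* relative to adipocyte markers at 0.073. Without *Ucp1*, the ratios to adipocyte markers were -0.025 for *Fabp4*, -0.189 for *Vldlr* and -0.065 for *Slc27a1*. Untested values within the sets also differed in sign for 7 of the 20 ratios. Relative to endothelial markers, *Cd36* was at 0.093, *Slc27a1* at 0.043 and *Lrp1* at 0.204 in replicates 1 to 3, and *Lpl* at -0.578 and *Fabp3* at -0.199 in replicates 4 and 5. Relative to adipocyte markers, *Vldlr* was at -0.0058 in replicates 1 to 3 and *Fabp5* at 0.961 in replicates 4 and 5. Depth limits *Fabp5* most, with 237 reads in its lowest library.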
